A study of Mus musculus with 8 samples.

Results

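The genes described here are those of the mouse mitochondrial genome. They were taken as every row of the deposited expression table whose symbol begins with mt-, which gave 37 of the 41709 genes listed. Of these 37 genes, 13 encode mRNAs, 2 encode rRNAs and 22 encode tRNAs.

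The RNA came from tibialis anterior (TA) muscles, a fast muscle of the lower hindlimb, of 3-month-old male C57BL/6J mice. One TA muscle of each mouse was electroporated with a pool of siRNAs against *Uba1*, which encodes the main enzyme that activates ubiquitin for its transfer to proteins. The contralateral muscle received control non-targeting (NT) siRNAs, and both were collected at day 7. There were 4 muscles in each group, numbered as replicates 1 to 4, and the same number marks both legs of a mouse.

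All groups share the electroporation, and no muscle without it was analysed here. All 4 muscles with NT siRNAs were right legs and all 4 with *Uba1* siRNAs were left legs, so leg and siRNA cannot be told apart. The treatment tags of *Uba1* replicates 2, 3 and 4 name other targets than UBA1, whereas titles and descriptions name UBA1 for all 4, and the muscles were grouped by the descriptions. *Uba1* mRNA ranged from 59.0 to 63.6 TPM (transcript abundance per length, scaled to the same total in every muscle) with NT siRNAs and from 6.77 to 23.1 TPM with *Uba1* siRNAs, with no overlap (log2FC = -1.98, adjusted p = 0.0527 from limma, and 0.0278 with the replicate block, which pairs the legs of a mouse and so changes this call). The list of skeletal muscle fiber markers (8 genes) summed to between 75881 and 103136 TPM in every muscle. The RNA was taken from the whole TA muscle, which also holds vessels, fibroblasts, fat and blood.

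Mitochondria keep a small circular genome of their own, which is transcribed from both strands into long precursors. The precursors are cut at the tRNAs that lie between the larger genes, and most of the released mRNAs are polyadenylated. The mRNAs encode core subunits of 4 of the complexes of oxidative phosphorylation, while the remaining subunits, and every protein that copies, transcribes, processes or translates this genome, come from the nucleus. Skeletal muscle is among the tissues with the highest content of mitochondria, since contraction consumes large amounts of ATP.

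On the GRCm39 assembly the mitochondrial chromosome (chrM) is 16299 bases long. All 37 symbols were matched to the GENCODE annotation of that assembly. The plus strand of the annotation carries 12 mRNAs, both rRNAs and 14 tRNAs. *mt-Nd6* is the only mRNA on the minus strand, together with 8 tRNAs. No mitochondrial gene has an intron. The genes are packed so closely that several share bases, and 3 such places and 1 gene end are shown because they bear on which gene a read is counted for. In the overlap of *mt-Atp8* and *mt-Atp6* (chrM:7927-7969, plus strand, 43 bases) capitals mark the start codon of *mt-Atp6* and the stop codon of *mt-Atp8*. In the *mt-Nd4l* and *mt-Nd4* stretch (chrM:10152-10188, plus strand) capitals mark the 7 bases that both genes hold. In the *mt-Nd5* and *mt-Nd6* stretch (chrM:13542-13575, plus strand) capitals mark the 14 bases that the ends of both genes share on opposite strands. At the end of *mt-Nd4* (chrM:11530-11560, plus strand) the capital is its last base, a T that the poly(A) tail completes to a stop codon.
mt-Atp8 and mt-Atp6: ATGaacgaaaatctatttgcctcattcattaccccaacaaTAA
mt-Nd4l and mt-Nd4: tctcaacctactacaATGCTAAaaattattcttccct
mt-Nd5 and mt-Nd6: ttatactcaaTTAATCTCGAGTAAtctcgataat
mt-Nd4 and mt-Th: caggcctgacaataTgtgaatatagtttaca

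Of the 13 mRNAs, 10 carry a complete stop codon in the genome and 3 (*mt-Co3*, *mt-Nd4* and *mt-Cytb*) end in a single T. Besides ATG, which starts 9 of them, the mRNAs begin with GTG (*mt-Nd1*), ATA (*mt-Nd2*), ATT (*mt-Nd3*) or ATC (*mt-Nd5*). *mt-Nd6* differs in base composition from all the others. It holds 28.1% G and 5.97% C, whereas the 12 plus-strand mRNAs hold between 5.88% and 16.1% G and between 22.1% and 30.0% C. The first 30 bases of *mt-Nd6* (chrM:14041-14070, minus strand) and of its neighbor *mt-Nd5* (chrM:11742-11771, plus strand), with the start codons in capitals, show this contrast.
mt-Nd6: ATGaataattatatttttgttttaagttca
mt-Nd5: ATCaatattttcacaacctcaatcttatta

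Transcripts of the mitochondrial genome took a large share of all TPM in every muscle, and the group means of this share differed by less than the spread between muscles. With NT siRNAs the 37 genes made up 45.7%, 43.9%, 42.1% and 43.2% of TPM in replicates 1 to 4. With *Uba1* siRNAs they made up 40.2%, 50.3%, 39.9% and 46.5%. The groups overlapped, since the lowest and the highest share were both found with *Uba1* siRNAs. The means were 43.7% ± 1.50 and 44.2% ± 5.08 (SD, n = 4 muscles each), a difference of 0.539 percentage points. Within mice the *Uba1* leg differed from the NT leg by -5.46, 6.47, -2.23 and 3.37 percentage points, so it was higher in 2 of 4. The SD was 3.39 times as large with *Uba1* siRNAs. No test was made of this sum over members. Leaving out *Uba1* replicate 2 moved the difference to -1.49 and leaving out *Uba1* replicate 4 moved it to -0.22 percentage points. In whole tissue, fewer cells rich in mitochondria and less mitochondrial RNA per cell cannot be told apart.

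**Figure D1:**
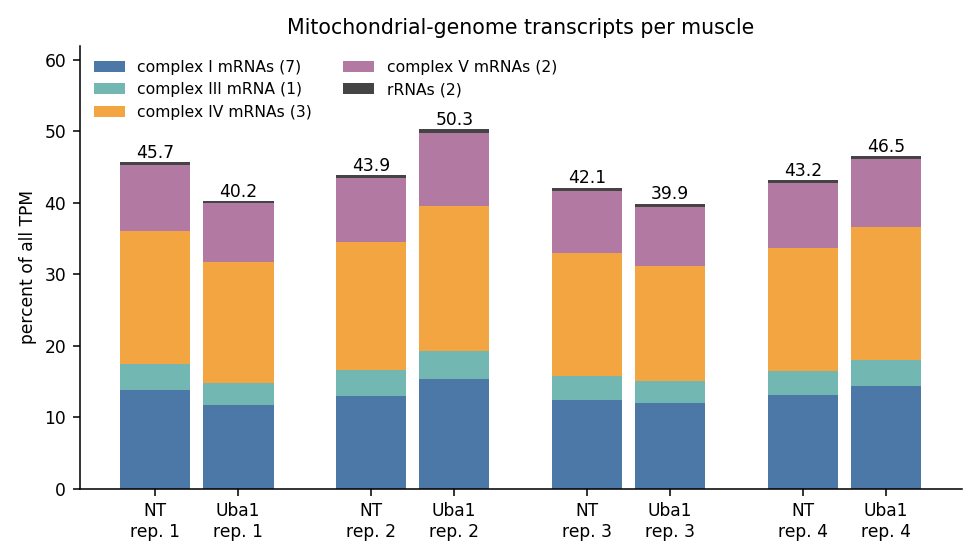
Percent of all TPM held by mitochondrial-genome transcripts in each of the 8 muscles, with the legs of a mouse side by side and the number above each bar giving the total. Bars are stacked by the complex the mRNAs serve, plus rRNAs, and totals run from 39.9% to 50.3%, both in muscles with Uba1 siRNAs.

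Because TPM sum to 1000000 in each muscle, a larger mitochondrial share leaves less for nuclear genes. The muscles with the largest shares, *Uba1* replicates 2 and 4, also had the lowest *Acta1*, the main actin of the adult fiber, at 28196 and 29552 TPM against 35911 to 42479 TPM in the other 6. Of the 8 fast fiber markers, 4 were lower in both than in any other muscle, among them *Mylpf*, a regulatory light chain of fast myosin, at 10656 and 13139 TPM against 17281 TPM or more. Not all fast markers followed, since in *Uba1* replicate 4 the type 2b myosin *Myh4* was at 17829 TPM, within the range of the other muscles. The 8 slow and type 2a markers were split. *Myh2*, the myosin of type 2a fibers, at 201 and 329 TPM against 79.0 to 169 TPM, and the light chain *Myl3* were higher in both than elsewhere, while the slow troponin I *Tnni1*, at 2.10 and 4.04 TPM against 5.56 to 19.8 TPM, and the calcium pump *Atp2a2* were lower. Of the 5 adipocyte markers, 4 (*Adipoq*, *Plin1*, *Lep* and *Cfd*) were lower in both than in the other 6, with *Cfd*, an adipocyte-secreted protease, at 6.10 and 8.21 TPM against 25.1 to 60.9 TPM. The other one, the fatty acid binding protein *Fabp4*, was at 62.7 and 57.5 TPM against 57.4 to 67.0 TPM. Their part in the spread of the mitochondrial share was not tested. Over whole lists, the fast fiber sum (8 genes) ranged from 99370 to 113886 TPM with NT siRNAs and from 82361 to 109820 TPM with *Uba1* siRNAs. The slow and type 2a sum (8 genes) ranged from 133 to 256 TPM and from 202 to 409 TPM. The adipocyte sum (5 genes) ranged from 88.3 to 134 TPM and from 67.7 to 120 TPM and was lower in the *Uba1* leg of 4 of 4 mice. The fibroblast sum (6 genes) ranged from 475 to 992 TPM and from 598 to 1217 TPM and was higher in the *Uba1* leg of 4 of 4 mice. The red blood cell sum (5 genes) ranged from 1922 to 6998 TPM and from 1841 to 3676 TPM. The leukocyte sum (10 genes) stayed between 34.6 and 98.3 TPM and the endothelial sum (6 genes) between 108 and 165 TPM. *Ly6g*, a neutrophil marker, was at 0 in every NT muscle and reached at most 0.0699 TPM with *Uba1* siRNAs. *Cd3e*, a T cell marker, stayed under 0.1 TPM throughout. All sums overlapped between groups, and no marker of these lists passed the adjusted p.

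Nearly all of the share came from the 13 mRNAs, at 43.3% ± 1.52 of TPM in the NT group and 43.8% ± 5.02 in the *Uba1* group (SD, n = 4 each). Mitochondrial rRNAs took 0.394% ± 0.0474 and 0.437% ± 0.0984. The tRNAs took 0.000730% ± 0.000160 and 0.00132% ± 0.000375. The library kit selects polyadenylated RNA, and mitochondrial rRNAs and tRNAs carry short tails or none, so these levels are not the levels of rRNA and tRNA in the muscle. The 3 mRNAs of complex IV, the cytochrome c oxidase that passes electrons to oxygen, held 17.7% ± 0.683 of TPM in the NT group and 18.0% ± 1.86 in the *Uba1* group. For complex I, the NADH dehydrogenase, the 7 mRNAs held 13.1% ± 0.552 and 13.4% ± 1.82. For complex V, the ATP synthase, the 2 mRNAs held 9.0% ± 0.255 and 9.05% ± 0.989. *mt-Cytb*, the only mitochondrial gene of complex III, held 3.48% ± 0.129 and 3.45% ± 0.399. In each of the 4 complexes the groups overlapped and the *Uba1* leg was higher in 2 of 4 mice, replicates 2 and 4.

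The order of the genes by TPM, a level per length, was nearly the same in all muscles. *mt-Co1*, the catalytic subunit of complex IV, was highest at a mean of 68559 TPM over the 8 muscles (61785 to 79458). The other complex IV subunits, *mt-Co2* and *mt-Co3*, averaged 56775 and 53088 TPM. *mt-Atp6*, the proton channel subunit of the ATP synthase, averaged 52453 TPM and *mt-Atp8*, its small partner, 37804 TPM. Below them came *mt-Cytb* with 34697 TPM and the complex I subunits *mt-Nd1* with 34058, *mt-Nd4* with 27656, *mt-Nd2* with 26378, *mt-Nd4l* with 16203, *mt-Nd3* with 14991 and *mt-Nd5* with 12782 TPM. The 12S and 16S rRNAs *mt-Rnr1* and *mt-Rnr2* averaged 1965 and 2189 TPM. *mt-Nd6* was lowest of the 15 at 196 TPM (145 to 266), 10-fold below *mt-Rnr1*. Each gene stood above the next in 8 of 8 muscles except at 4 places. *mt-Co3* exceeded *mt-Atp6* in 6 of 8, *mt-Cytb* exceeded *mt-Nd1* in 6 of 8, *mt-Nd4l* exceeded *mt-Nd3* in 7 of 8 and *mt-Rnr2* exceeded *mt-Rnr1* in 7 of 8. These neighbors are not separated beyond their spread.

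**Figure D2:**
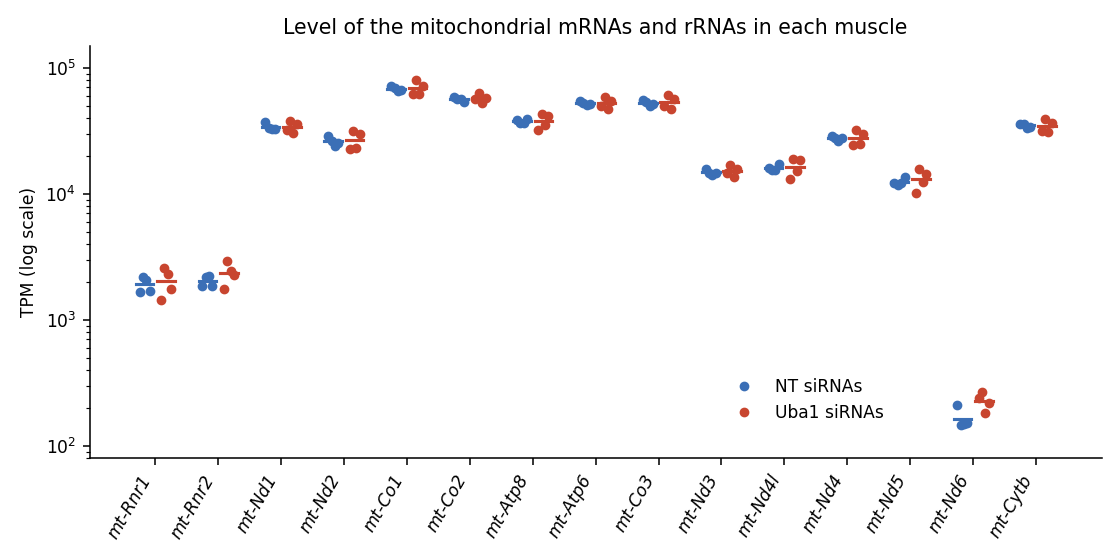
TPM (log axis) of the 13 mRNAs and 2 rRNAs in each muscle, in the order of the genes along the mitochondrial chromosome. Points are single muscles and bars the means of 4, and only mt-Nd6 lies near 200 TPM while the other mRNAs lie at 10120 TPM or more.

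Transcripts that share a precursor or an RNA were not equal in TPM. *mt-Atp8* and *mt-Atp6* are known to lie on a single mRNA, and the TPM of *mt-Atp8* was 0.720 times that of *mt-Atp6* on average (0.648 to 0.765 over the 8 muscles). *mt-Nd4l* and *mt-Nd4*, which are also carried together, gave a ratio of 0.585 (0.536 to 0.623). In both pairs the first gene is short and shares bases with the second. How reads in shared bases were counted is not given in the sources used here.

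Within the fit over 11530 genes, 18 members could be tested, having reached 1 TPM in 4 or more muscles. They were all 13 mRNAs, both rRNAs and the tRNAs *mt-Tl1*, *mt-Tm* and *mt-Ts1*. *mt-Tm* and *mt-Ts1* reached 1 TPM in every *Uba1* muscle but not in every NT muscle, so they met this filter only with the *Uba1* muscles counted. By limma on log2(TPM + 1), 0 of the 18 passed an adjusted p of 0.05, a threshold that 0.0260% of all genes tested passed, or 3 genes. By the Kruskal-Wallis test 0 passed as well, and 0.00% of all genes did, with 0.180 the smallest adjusted p of that test over all genes. With so few muscles the Kruskal-Wallis test could hardly reach the threshold. At an unadjusted p under 0.05, 2 of 18 (*mt-Tm* and *mt-Nd6*) were higher with *Uba1* siRNAs by either test and none was lower, whereas by limma 16.0% of all genes tested were higher and 1.98% were lower, and by the Kruskal-Wallis test 17.5% were higher. With TPM as deposited the share of members was 11.1%. It was 2 of 18 beside 4.45% of all genes with quantile normalization and 1 of 18 (5.56%) beside 3.90% with median-ratio scaling. Counts of 1 or 2 genes are too few to set the members above or below all genes, and *mt-Tm* among them rests on at most 4 reads a muscle.

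For the 12 plus-strand mRNAs the log2FC of *Uba1* versus NT siRNAs lay between -0.02 (*mt-Cytb*) and 0.07 (*mt-Nd5*). Their median was 0.0070, beside a median of 0.106 over all genes tested. *mt-Co1* stood at 71434, 69608, 65701 and 66948 TPM with NT siRNAs and at 61982, 79458, 61785 and 71559 TPM with *Uba1* siRNAs, for a log2FC of -0.0016 with a standard error of 0.107 (adjusted p = 0.995, limma). The *Uba1* muscles lay on both sides of the NT muscles. *mt-Nd5*, a proton-pumping subunit at the distal end of complex I, had the largest log2FC of the 12 and stood at 12091, 11804, 12086 and 13535 TPM with NT siRNAs and at 10120, 15806, 12355 and 14459 TPM with *Uba1* siRNAs. The groups overlapped (adjusted p = 0.773 from limma). *mt-Cytb*, which carries electrons through complex III, stood at 36046, 35854, 33533 and 33947 TPM with NT siRNAs and at 31447, 39374, 31109 and 36264 TPM with *Uba1* siRNAs, again with overlap (adjusted p = 0.928 from limma). The 95% intervals of the 12 log2FCs together reached from -0.27 to 0.38, so a difference of up to 0.832-fold or 1.30-fold in single genes lies within them. The lower limit was -0.50 (0.707-fold) after median-ratio scaling, and the upper limit was 0.50 (1.41-fold) after scaling to nuclear genes.

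The sign of these small values depended on the scaling. After median-ratio scaling, which put the median of all genes at -0.0055, all 12 plus-strand mRNAs were below 0, with a median of -0.12 and a range of -0.15 to -0.06. With TPM rescaled to the sum of nuclear genes, 11 of the 12 were above 0, with a median of 0.03 beside a median of 0.129 over all genes. None of the 12 had an unadjusted p under 0.05 under either scaling, quantile normalization or the replicate block, while after median-ratio scaling 6.70% of all genes were lower at that threshold. Quantile normalization gives each rank the same value in every muscle, so it could hardly show a difference in the top-ranked genes. Under it *mt-Co1*, *mt-Co2*, *mt-Co3*, *mt-Atp6* and *mt-Atp8* had equal group means.

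**Figure D3:**
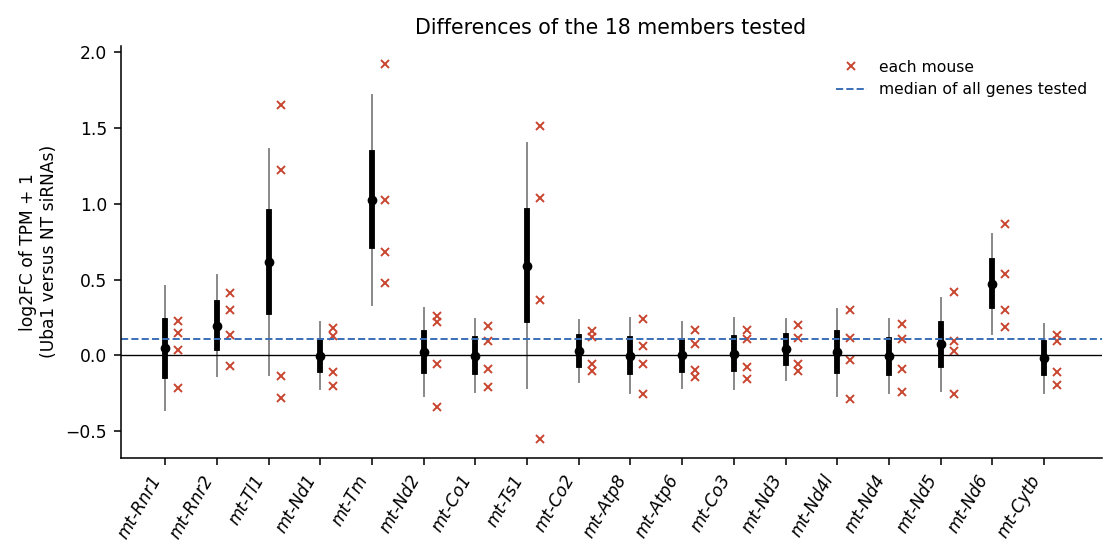
log2FC (Uba1 versus NT siRNAs, TPM + 1) of the 18 members tested, in the order of the genes. Black points are the limma estimates, thick bars 1 standard error and thin bars the 95% interval; red crosses are the differences within the 4 mice and the dashed line is the median of all genes tested (0.106). The 12 plus-strand mRNAs sit between -0.02 and 0.07, and mt-Nd6 and mt-Tm have intervals above 0.

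The rRNAs scaffold the mitochondrial ribosome. *mt-Rnr2* (16S) was listed at 1844, 2196, 2229 and 1844 TPM with NT siRNAs and at 1759, 2922, 2447 and 2272 TPM with *Uba1* siRNAs. The groups overlapped, and the *Uba1* leg was higher in 3 of 4 mice (log2FC = 0.19, standard error 0.148, adjusted p = 0.475 from limma). *mt-Rnr1* (12S) was at 1677, 2206, 2071 and 1703 TPM and at 1444, 2579, 2299 and 1744 TPM, with overlap (log2FC = 0.05, standard error 0.181, adjusted p = 0.894). The ratio of *mt-Rnr2* to *mt-Rnr1* was 1.06 ± 0.0463 in the NT group and 1.18 ± 0.104 in the *Uba1* group (SD, n = 4 each) and overlapped.

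*mt-Nd6*, a membrane subunit of complex I and the only mRNA of the minus strand, was the one mRNA with an unadjusted p under 0.05. With NT siRNAs it was at 212, 145, 149 and 151 TPM in replicates 1 to 4, and with *Uba1* siRNAs at 242, 266, 184 and 220 TPM. It was higher in the *Uba1* leg of 4 of 4 mice, but NT replicate 1 stood above *Uba1* replicate 3, so the groups overlapped. The means were 164 ± 31.9 and 228 ± 35.0 TPM (SD, n = 4 each). limma put the log2FC at 0.47 with a standard error of 0.147 and an adjusted p of 0.181. An exact permutation test of the log2 values, chosen after seeing the data, gave p = 0.0571 (two-sided, unadjusted, 1 of 18 members so tested). The smallest p this test can give with 4 against 4 muscles is 0.0286, which *mt-Tm* reached. With the replicate block the adjusted p was 0.0967, in a fit that called 0.494% of all genes. After median-ratio scaling the log2FC was 0.34 and the unadjusted p 0.0760, whereas the replicate block with the same scaling gave an unadjusted p of 0.0472 and an adjusted p of 0.310. Under this scaling the unadjusted threshold was thus passed with the pairing of legs and missed without it. Over the alternatives run, its log2FC stayed between 0.34 and 0.60 and its adjusted p between 0.0967 and 0.523.

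These values of *mt-Nd6* rest on 1737, 1169, 1156 and 1141 reads with NT siRNAs and on 1854, 2160, 1380 and 1733 reads with *Uba1* siRNAs. Counting alone gives the log2FC a standard error of 0.0259, which is below the spread between muscles. The kit does not mark strand, so a read of *mt-Nd6* and a read of RNA from the opposite strand at the same place cannot be told apart. Whether the *mt-Nd6* reads came from its mRNA alone, and whether poly(A) selection captured that mRNA as fully as the others, was not tested.

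Among the tRNAs, few reads were counted. Multiplied by gene length, the TPM of mitochondrial genes in each muscle were whole multiples of 1 step, for 155 of 155 values above 0 within a tolerance of 0.01, which gave the reads behind each value. A single read in a tRNA of 69 bases was worth 0.919 to 1.00 TPM. Of the 22 tRNAs, 11 had no read in any muscle, for which a count of 0 allows up to 3 reads, or 2.76 to 3.00 TPM for such a length. Only *mt-Tl1*, a leucine tRNA, had reads in all 8 muscles, and 8 of the 11 tRNAs with reads never exceeded 1 read in a muscle. These 8 were *mt-Tv*, *mt-Tq*, *mt-Tw*, *mt-Ta*, *mt-Tn*, *mt-Th*, *mt-Te* and *mt-Tp*. The 3 tRNAs with more reads are printed because their short length sets how many reads they can hold: *mt-Tm* (chrM:3845-3913, plus strand), *mt-Tl1* (chrM:2676-2750, plus strand) and *mt-Ts1* (chrM:6870-6938, minus strand), the last of which shares 3 bases with *mt-Co1*.
mt-Tm: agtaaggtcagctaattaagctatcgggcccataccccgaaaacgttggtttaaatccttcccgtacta
mt-Tl1: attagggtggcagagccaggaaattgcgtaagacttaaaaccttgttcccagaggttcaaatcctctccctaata
mt-Ts1: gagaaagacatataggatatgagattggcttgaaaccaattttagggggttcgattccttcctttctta

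*mt-Tm*, the methionine tRNA just upstream of *mt-Nd2*, had 2, 0, 1 and 2 reads with NT siRNAs and 3, 3, 3 and 4 reads with *Uba1* siRNAs. It was the only member tested whose TPM did not overlap between groups, with 10.6% of all genes tested higher and 1.01% lower without overlap. limma put the log2FC at 1.03 with a standard error of 0.307 and an adjusted p of 0.174. Counting alone gives this log2FC a standard error of 0.465, larger than that of the fit. *mt-Tl1* had 6, 4, 4 and 2 reads and 5, 11, 3 and 9 reads, with overlap (log2FC = 0.61, adjusted p = 0.340 from limma). *mt-Ts1*, a serine tRNA, had 1, 0, 2 and 2 reads and 3, 2, 1 and 3 reads, also with overlap (log2FC = 0.59, adjusted p = 0.382 from limma). Summed over the 22 tRNAs there were 11, 7, 7 and 7 reads with NT siRNAs and 14, 18, 8 and 17 with *Uba1* siRNAs. The sum was higher in the *Uba1* leg of 4 of 4 mice but the groups overlapped, and no statement on single tRNAs is drawn from counts this low. By contrast, the 13 mRNAs rested on between 5239557 and 7208893 reads a muscle and the rRNAs on between 61415 and 110792.

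A second comparison set each member against the mitochondrial mRNA pool, since all members can move together in TPM. The make-up of this pool was close to constant. Over the 8 muscles, complex IV mRNAs held 41.0% of the TPM of the 13 mRNAs (40.2% to 42.3%), complex I 30.3% (29.3% to 31.3%), complex V 20.7% (20.5% to 21.2%) and complex III 7.97% (7.86% to 8.26%). For single mRNAs the coefficient of variation of this share was lowest for *mt-Co1* at 1.18%, *mt-Co3* at 1.58% and *mt-Cytb* at 1.64%. It was 4.52% for *mt-Co2*, 7.03% for *mt-Nd4l*, 8.82% for *mt-Nd5* and highest for *mt-Nd6* at 21.3%. The rRNAs, given as a percent of mRNA TPM, varied by 18.7% (*mt-Rnr1*) and 15.1% (*mt-Rnr2*).

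**Figure D4:**
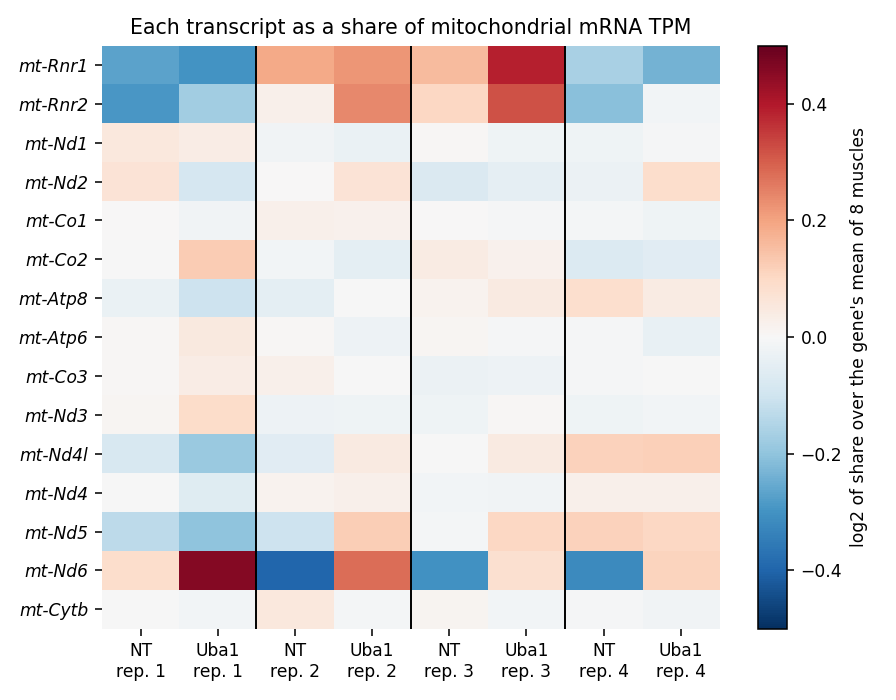
Each mRNA and rRNA as a share of the TPM of the 13 mitochondrial mRNAs, drawn as the log2 of its share over the mean of the gene's log2 shares in 8 muscles, with the legs of a mouse side by side. Red is above and blue below the gene's own mean; mt-Nd6 is redder in the Uba1 leg of each mouse, and mt-Rnr1 is above its mean in both legs of mice 2 and 3 and below it in both legs of mice 1 and 4.

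With every muscle scaled to the same sum of the 13 mRNAs and all genes refitted, 0 of 18 members passed the adjusted p by limma, which 0.217% of all genes did. At an unadjusted p under 0.05, 3 of 18 members were higher, namely *mt-Tm*, *mt-Nd6* and *mt-Tl1*, beside 4.06% of all genes. With the replicate block, 3 members passed the adjusted p (*mt-Tl1*, *mt-Tm* and *mt-Ts1*), beside 2.78% of all genes. They are the 3 tRNAs with at most 11 reads a muscle. In that fit limma gave the members standard errors of at most 0.166, against standard errors from counting alone of 0.362 for *mt-Tl1*, 0.465 for *mt-Tm* and 0.483 for *mt-Ts1*. The standard errors of that fit were thus smaller than those of counting.

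The share of *mt-Nd6* in the mRNA pool was 0.0468%, 0.0335%, 0.0357% and 0.0354% with NT siRNAs and 0.0607%, 0.0535%, 0.0466% and 0.0476% with *Uba1* siRNAs. It was higher in the *Uba1* leg of 4 of 4 mice, and NT replicate 1 and *Uba1* replicate 3 barely overlapped. The composition fit gave a log2FC of 0.46 with a standard error of 0.143 and an adjusted p of 0.480 by limma. *mt-Co1* stood at 337, 479, 441 and 442 times the TPM of *mt-Nd6* with NT siRNAs and at 256, 299, 336 and 326 times with *Uba1* siRNAs. That ratio was lower in the *Uba1* leg of 4 of 4 mice, and the closest muscles of the groups, at 337 and 336, were nearly equal.

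*mt-Cytb* was the only mRNA whose share of the pool did not overlap between groups, and *mt-Tm* the only other member tested, higher on this scale as 2.78% of all genes were. It held 7.95%, 8.26%, 8.04% and 7.93% with NT siRNAs and 7.88%, 7.91%, 7.89% and 7.86% with *Uba1* siRNAs. The *Uba1* muscles were all just below the lowest NT muscle, whereas 0.885% of all genes tested were lower without overlap on this scale. The means differed by -0.160 percentage points. The composition fit over all genes put the log2FC at -0.03 with a standard error of 0.081 and an adjusted p of 0.946 by limma. limma draws standard errors toward those of other genes, and the share itself had SDs of 0.149 (NT) and 0.0203 (*Uba1*) percentage points. An exact permutation test of the log2 shares, chosen after seeing the data, gave p = 0.0286 (two-sided, unadjusted). That is the smallest p possible with 4 against 4 muscles, which any member without overlap reaches. *mt-Co1* was also lower in its share in the *Uba1* leg of 4 of 4 mice and *mt-Nd3* higher in 4 of 4, both with overlap.

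Relative to mRNA TPM, *mt-Rnr1* was at 0.370%, 0.508%, 0.497% and 0.398% with NT siRNAs and at 0.362%, 0.518%, 0.583% and 0.378% with *Uba1* siRNAs. *mt-Rnr2* was at 0.407%, 0.506%, 0.535% and 0.431%, and at 0.441%, 0.587%, 0.621% and 0.493%. For both rRNAs, both legs of mice 2 and 3 stood above both legs of mice 1 and 4. *mt-Rnr2* was higher in the *Uba1* leg of 4 of 4 mice, with overlap between the groups.

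*Uba1* replicate 1 differed most in the make-up of its pool. It held the highest or the lowest share of the 8 muscles for 10 of the 13 mRNAs, against 6 for *Uba1* replicate 4 and at most 4 for any other muscle. *mt-Co2* took 14.2% of its pool, against 12.4% to 13.4% in the other muscles, and *mt-Nd3* took 3.67% against 3.38% to 3.47%. At the low end, *mt-Nd5* took 2.54% against 2.67% to 3.17%, *mt-Nd4l* 3.26% against 3.51% to 4.02% and *mt-Atp8* 8.07% against 8.39% to 9.19%. The composition fit without this muscle called 0 members.

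Copies of mitochondrial sequence in the nuclear genome bear on these shares. Alignments on a single autosome were left out of the copies given here. The longest near-identical copy on the chromosomes kept, at chr1:24650616-24655269 of GRCm39, matched bases 6390 to 11042 of chrM with 99.9% identity over 4654 aligned positions. It covers *mt-Co2*, *mt-Atp8*, *mt-Atp6*, *mt-Co3*, *mt-Nd3* and *mt-Nd4l* whole, 63.6% of *mt-Nd4* and 31.3% of *mt-Co1*. It also covers the tRNAs *mt-Ts1*, *mt-Td*, *mt-Tk*, *mt-Tg* and *mt-Tr* whole, of which *mt-Ts1* was tested and the other four had no read in any muscle. Reads of these genes could be placed at either locus, and how such reads were counted is not given in the sources used here. Other long copies on the chromosomes kept were less alike. One on chr2:22477300-22480546 (97.4% identity) matched bases 4441 to 7699 of chrM, which hold part of *mt-Nd2* and all of *mt-Co1* and *mt-Co2*. Another on chr4:79920567-79923441 (93.0%) matched bases 12488 to 15359, with part of *mt-Nd5* and all of *mt-Nd6* and *mt-Cytb*, and one on chr13:85274681-85275634 (95.2%) matched part of *mt-Nd5*.

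The nuclear genes that serve the mitochondrial genome were read from the same fit. Of 188 such genes tested, 0 passed the adjusted p by limma, and at an unadjusted p under 0.05, 16 (8.51%) were higher and 1 was lower with *Uba1* siRNAs, against 16.0% and 1.98% of all genes. The median log2FC of the 188 was 0.05, below the 0.106 of all genes. Among them are 76 nuclear subunits of oxidative phosphorylation, of which 0 were higher. After median-ratio scaling the split turned around, with 1 of the 188 higher, 22 lower and a median of -0.07, beside 3.90% of all genes higher and 6.70% lower under that scaling. Among 14 genes that copy and maintain mitochondrial DNA 5 were higher at that threshold, with a list median of 0.14, but after median-ratio scaling 1 was higher, 1 was lower and the median was 0.03. *Rrm2b*, a ribonucleotide reductase subunit that supplies deoxynucleotides outside S phase, was at 4.39, 4.40, 4.35 and 5.41 TPM with NT siRNAs and at 6.42, 6.39, 5.70 and 6.02 TPM with *Uba1* siRNAs. Its groups did not overlap, as 10.6% of all genes tested were higher without overlap (log2FC = 0.34, adjusted p = 0.143 from limma). *Dguok*, a mitochondrial deoxynucleoside kinase, had a log2FC of 0.28 (adjusted p = 0.177), *Mgme1*, a mitochondrial exonuclease, 0.21 (adjusted p = 0.165), *Twnk*, the replicative helicase, 0.13, and *Polg*, the catalytic subunit of the DNA polymerase, 0.09. After median-ratio scaling *Rrm2b*, *Dguok* and *Mgme1* stood at 0.23, 0.17 and 0.10 and *Twnk* at 0.0064, while *Polg* turned to -0.02.

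Of 9 transcription genes, 1 (11.1%) was higher at an unadjusted p under 0.05, with a median of 0.09, beside 16.0% of all genes. This was *Polrmt*, the mitochondrial RNA polymerase, at 10.6, 10.6, 10.5 and 11.2 TPM with NT siRNAs and at 13.1, 11.8, 13.1 and 12.2 TPM with *Uba1* siRNAs. Its groups did not overlap, as 10.6% of all genes tested were higher without overlap (log2FC = 0.21, adjusted p = 0.174 from limma). After median-ratio scaling the log2FC of *Polrmt* was 0.09 (unadjusted p = 0.156). The promoter-binding factors *Tfam* and *Tfb2m* and the elongation factor *Tefm* had log2FCs of 0.05, 0.07 and 0.07, which turned to -0.08, -0.05 and -0.05 after median-ratio scaling. Of 23 genes of RNA processing, tailing and stability, 2 (8.70%) were higher (median 0.11). *Lrpprc*, which stabilizes mitochondrial mRNAs, went with a log2FC of 0.19 (adjusted p = 0.182), and its partner *Slirp* with 0.04. The poly(A) polymerase *Mtpap*, the tRNA 3′ endonuclease *Elac2* and *Fastkd1*, an RNA-binding protein, had log2FCs of 0.07, 0.04 and 0.19. After median-ratio scaling *Lrpprc* stood at 0.07 and *Fastkd1* at 0.08, while *Slirp*, *Mtpap* and *Elac2* turned to -0.08, -0.04 and -0.08. Under that scaling 0 genes of either list were higher, 0 transcription genes and 1 processing gene were lower, and the medians were -0.04 and -0.02.

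Of 17 RNA modification genes and 17 translation genes, 2 each (11.8%) were higher at an unadjusted p under 0.05 (medians 0.07 and 0.09), among them *Mettl17*, a factor of small ribosomal subunit assembly, with a log2FC of 0.20, and *Vars2*, the mitochondrial valyl-tRNA synthetase, with 0.26. With 2 genes each, these lists are not set apart from all genes, of which 16.0% were higher. After median-ratio scaling 0 genes were higher, 0 modification genes and 1 translation gene were lower, and the medians were -0.04 and -0.02. In the list of 14 regulators of mitochondrial biogenesis (median 0.10) 2 (14.3%) were higher, close to the 16.0% of all genes, and after median-ratio scaling 0 were higher and 2 lower with a median of -0.02. The coactivator *Ppargc1a* was at 8.28, 7.41, 10.9 and 9.80 TPM with NT siRNAs and at 11.2, 13.1, 12.5 and 11.7 TPM with *Uba1* siRNAs. All 4 stood above the NT muscles, as 10.6% of all genes tested were higher without overlap (log2FC = 0.39, adjusted p = 0.168 from limma). After median-ratio scaling its log2FC was 0.27 (unadjusted p = 0.0509). Its partner receptor *Esrra* had a log2FC of 0.11, which turned to -0.02. Of 19 stress response genes, 2 (10.5%) were higher beside 16.0% of all genes (median 0.04), the chaperonin cofactor *Hspe1* with 0.20 and the protease *Lonp1* with 0.15. After median-ratio scaling these stood at 0.07 and 0.03, and the list had 0 higher and 1 lower with a median of -0.08.

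Nuclear subunits of oxidative phosphorylation lay close to the mitochondrial mRNAs. Of 76 tested, 0 were higher and 1 was lower at an unadjusted p under 0.05, beside 16.0% and 1.98% of all genes, and their median log2FC was 0.02. By complex the medians were 0.02 for complex I (36 genes), 0.07 for complex II (4), 0.01 for complex III (9), 0.01 for complex IV (12) and 0.02 for complex V (15). The exception was *Cox6b1*, a complex IV subunit on the side of cytochrome c, at 865, 884, 939 and 825 TPM with NT siRNAs and at 758, 511, 621 and 716 TPM with *Uba1* siRNAs. Its groups did not overlap, as 1.01% of all genes tested were lower without overlap (log2FC = -0.44, adjusted p = 0.161 from limma). The mitochondrial partners *mt-Co1*, *mt-Co2* and *mt-Co3* had log2FCs of -0.0016, 0.03 and 0.01. After median-ratio scaling, 1 of the 76 had a log2FC above 0 and 16 were lower at an unadjusted p under 0.05, beside 6.70% of all genes, with a list median of -0.11.

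**Figure D5:**
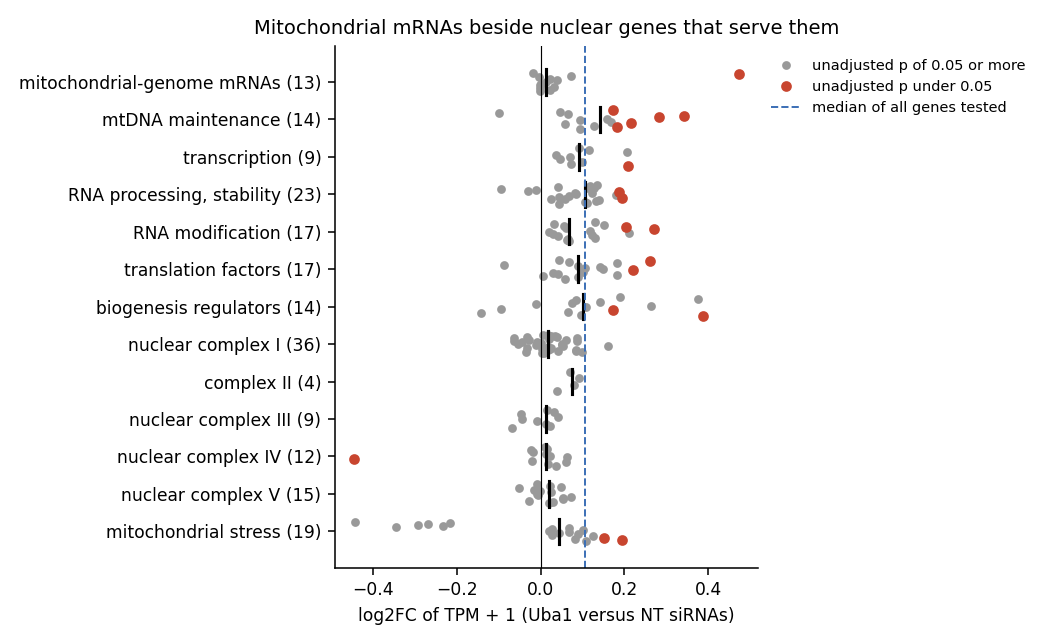
log2FC (Uba1 versus NT siRNAs, TPM + 1) of the 13 mitochondrial mRNAs and of the nuclear genes that serve them, by list, with the number tested in brackets. Points are genes, red where the unadjusted p is under 0.05, black ticks are list medians and the dashed line is the median of all genes tested; the oxidative phosphorylation lists sit near 0 with the mitochondrial mRNAs, apart from Cox6b1 at -0.44 and mt-Nd6 at 0.47.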

How the data were processed

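RNA-seq was performed on 8 TA muscles with TruSeq v2 libraries. The authors used CLC Genomics Workbench to align reads to GRCm39 and deposited a TPM for each gene; the annotation and the handling of reads with several placements are not given in the sources used here. The mt- genes were matched to GENCODE on GRCm39, and nuclear copies were searched with blastn 2.17.0, with alignments on a single autosome left out.

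Genes that reached 1 TPM in 4 or more muscles were tested with limma 3.58.1 (R 4.3.3) on log2(TPM + 1), two-sided and without a block, with Benjamini-Hochberg adjustment over all 11530 genes. On this scale a log2FC understates changes of low genes. Members and lists were chosen with earlier results of these data known, and so no p was adjusted over members alone. Named nuclear genes were 12 set ones plus up to 3 per list with the smallest unadjusted p under 0.05 and the same direction in all 4 mice. The fits were tested on simulated data. Total depth of the libraries is unknown. Reads of mitochondrial genes were recovered from their TPM and are not molecules, so counting errors cover counting only. Same-numbered muscles are the legs of 1 mouse per the study's methods; their deviations from the group means correlated at -0.00037, 0.2, 0.58 and 0.54 over genes. Of 214 listed pathway symbols, which include old and new names of the same complex V subunits, 195 were in the table.

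Alternatives were pseudocount 0.1, other filters, median-ratio, quantile and nuclear-gene scaling, the replicate block, the Kruskal-Wallis test and leaving out each muscle.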

Additional observations from a re-analysis of the deposited data

Results flagged for a closer look

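Among 70 groups of 4 muscles examined (member levels and shares by group), 5 held a muscle far from the other 3, and chance flags about 1 in 20 such groups. *mt-Nd6* was at 212 TPM in NT replicate 1 against 145 to 151 TPM in the other NT muscles, and as a share of mitochondrial mRNA TPM at 0.0468% against 0.0335% to 0.0357%. Without this muscle the log2FC of *mt-Nd6* was 0.60 (adjusted p = 0.129 from limma). *mt-Nd3* held 3.47% of the mRNA pool in the same muscle, against 3.38% to 3.40%. *mt-Nd5* was at 13535 TPM in NT replicate 4 against 11804 to 12091 TPM, and in *Uba1* replicate 1 it held 2.54% of the pool against 3.13% to 3.17%.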

How the results depend on the processing

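The count of members past the adjusted p was 0 under all 18 alternatives to the fit as described, though the Kruskal-Wallis test could hardly pass it with so few muscles. Of 321 values of single members under these alternatives, 305 log2FCs moved by less than 1 SD between muscles and 0 were called. Many of the 305 could not move, since other filters, the replicate block and the Kruskal-Wallis test leave the log2FC of a gene unchanged. The block with another scaling likewise repeats the log2FC of that scaling. The count at an unadjusted p under 0.05 was 2, became 1 with a filter at a mean of 5 TPM (which leaves out the tRNAs) and 1 with median-ratio scaling, and ranged from 2 to 3 with each muscle left out. The replicate block, which treats the legs of a mouse as a pair, raised the composition calls from 0 to 3, all tRNAs with few reads, and changed no other call of a member; the composition count at an unadjusted p ranged from 2 to 4 with each muscle left out. The difference in mitochondrial share was 0.539 percentage points, 0.570 as the median within pairs, and ranged from -1.49 to 1.99 with each muscle left out. Of the listed nuclear genes, 17 were past an unadjusted p of 0.05, and 9 without NT replicate 2, 11 without NT replicate 3, 11 without *Uba1* replicate 3 and 14 to 19 without any other muscle. There were 20 with the block, 22 with nuclear-gene scaling and 23 with median-ratio scaling, the last with 22 of them lower. The number of muscles limits the precision for mRNAs and rRNAs, and the number of reads limits it for tRNAs.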
